A study of Mus musculus with 32 samples.

Results

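The effect of a conditional deletion of Foxo1 was measured in neonatal mouse uteri under diethylstilbestrol (DES), a synthetic estrogen. The comparison set 4 arrays of Foxo1 conditional knockout (cKO) uteri against 4 arrays of Foxo1 wild-type uteri, chosen by their sample titles, out of 32 arrays in the series. All 8 arrays came from DES-treated female CD-1 mice on postnatal day 5, and each held Cy3-labelled RNA of whole uterine tissue. The other 24 arrays were Esr1 wild-type and cKO uteri after vehicle or DES, and Foxa2 wild-type and cKO uteri after DES, with 4 arrays in each of the 8 groups. The sources used here give neither the Cre driver nor the DES dose, the litters or any pooling of animals, and vehicle-treated uteri of the Foxo1 line were not analysed here, so the response to DES itself cannot be given in this line. The arrays compared are called biological replicates in the series design. Nothing says how they relate to animals, so p-values and SE rest on a spread between arrays. That spread was pooled over all 32 arrays of the series, not taken from the 8 compared arrays alone.

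FOXO1 is a forkhead transcription factor that moves out of the nucleus when growth factor signalling through PI3-kinase and AKT phosphorylates it. In the adult uterus it is known for its part in decidualization of stromal cells and in the epithelium at implantation. Many of the genes described here are known as interferon-inducible. Promoters of genes that respond to interferon gamma often hold gamma-activated sequences (GAS), and those of genes that respond to type I interferons often hold interferon-stimulated response elements (ISRE). Their best known products in mice are the immunity-related GTPases and the guanylate-binding proteins, which attack vacuoles that hold intracellular pathogens, and the machinery that cuts and loads peptides for MHC class I.

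On the 8 arrays of the Foxo1 line the intensity at the 75th percentile ran from 697 to 927, against 551 to 9024 over the whole series. The level of a gene is the log2 intensity of its probe minus its array's 75th percentile, so a level of 0 marks that percentile, and differences are in log2 units. Xist, transcribed from the inactive X chromosome of females, had levels from 1.92 to 2.97 on all 8 arrays. 2 arrays outside the comparison stood apart. Esr1 wild-type vehicle replicate 4, labelled female like the rest, had Xist at -2.35 and the lowest 75th percentile, and Foxa2 wild-type DES replicate 1 had the highest. Both enter the estimate of spread and the ranges of levels of their groups. The main counts of calls that rest on them are given with and without them. Of the defining markers of epithelium, Epcam had a mean level of 3.31 in wild type and 3.14 in cKO. Krt8 had 7.19 and 7.37, Krt18 7.19 and 7.23, and Cdh1 1.16 and 3.40. Of those of the uterus, Hoxa10 had 1.57 and 1.52, Hoxa11 3.58 and 3.67, and Pgr -1.03 and -1.64. The estrogen receptor gene Esr1, not among these markers, had 1.73 and 1.80. Called genes are those with an adjusted p under 0.05 in limma, with Benjamini-Hochberg adjustment over 17145 genes and 1 estimate of the spread over all 32 arrays. The 4 replicates of each genotype fell into 2 sets, replicates 1 and 2 and replicates 3 and 4, whose deviations from the group means ran in opposite directions, and each result was checked in both.

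Foxo1 itself, the deleted gene, was measured first. Its levels were 3.68, 3.78, 4.06 and 3.94 in wild-type replicates 1 to 4. They were 1.15, 1.33, 1.32 and 1.12 in the cKO replicates. The groups did not overlap, and every cKO array lay more than 2 log2 units under every wild-type array. The difference was -2.64 ± 0.19 (SE, n = 4 and 4, adjusted p = 1.04e-09 in limma), which left 16.1% of the wild-type intensity. Both Foxo1 probes fell, by 2.64 and by 2.79 on the log2 scale, and the difference was -2.49 in replicates 1 and 2 and -2.78 in replicates 3 and 4. All 4 cKO arrays lay below the other 28 arrays of the series. Whether the probes lie inside the deleted part of the gene is not given in the sources used here. In whole tissue, fewer cells of a type and less RNA per cell cannot be told apart, and this holds for every value that follows. In the Esr1 line, Foxo1 was higher after DES than after vehicle by 0.95 (adjusted p = 0.000125 in limma), and by 1.01 without the 2 arrays that stood apart.

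The plot of levels by array shows Foxo1 beside 7 of the genes described next.

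**Figure D1:**
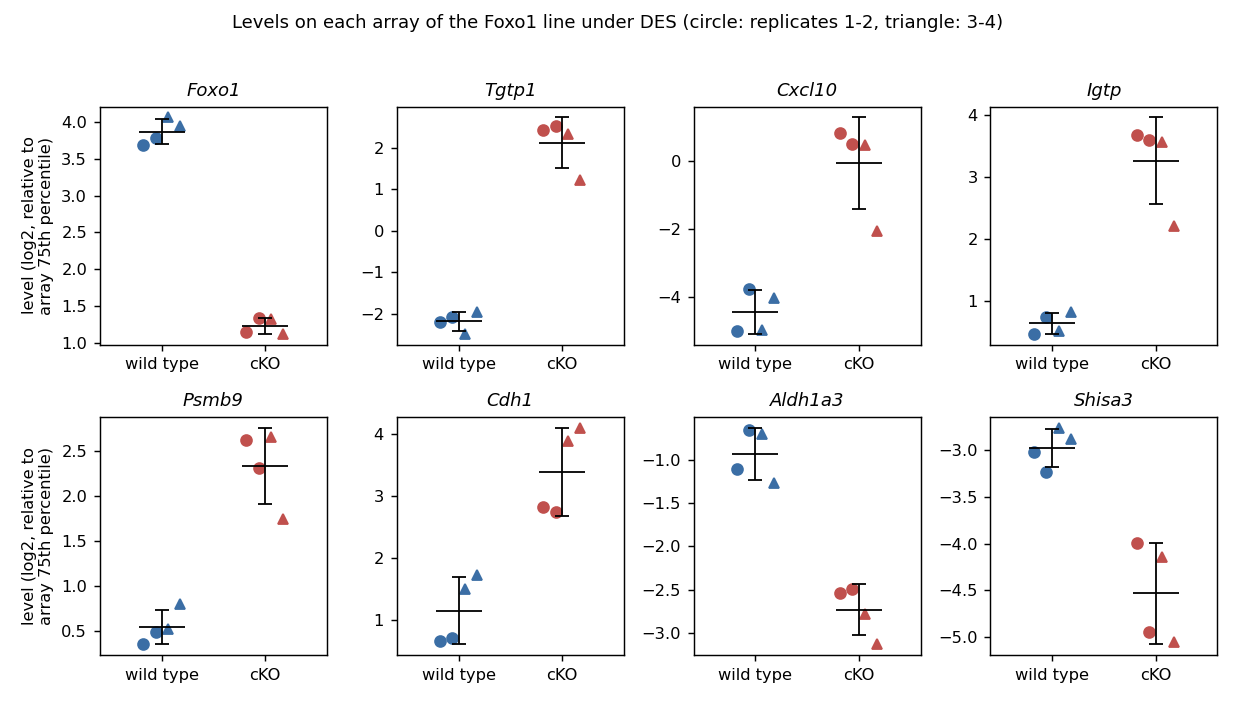
Levels (log2, relative to the array's 75th percentile) of 8 genes on each of the 4 wild-type (blue) and 4 cKO (red) arrays of the Foxo1 line under DES, with circles for replicates 1 and 2, triangles for replicates 3 and 4, and black bars for the mean ± SD. The genotypes do not overlap in any panel, and cKO replicate 4 (the right-hand triangle) is the lowest cKO array for Tgtp1, Cxcl10, Igtp and Psmb9.

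Of the 17145 genes tested, 38 were called, or 0.222% (limma), and 31 of them were higher in cKO (0.181%) and 7 lower (0.0408%). At an unadjusted p under 0.05, 648 genes passed. The wild-type and cKO arrays did not overlap for any of the 38. Over all genes, 8.09% had no overlap (5.51% higher in cKO, 2.58% lower). The differences of the 31 raised genes ran from 0.66 to 4.39 and those of the 7 lowered genes from -2.64 to -0.96, and 33 of the 38 differed by at least 2-fold. The median difference of all genes was 0.05. With quantile normalization 38 genes were called higher and 25 lower, and with median scaling 21 and 18, with medians of all genes at -0.01 and -0.10, so the excess of raised genes depended on the scaling. Leaving out wild-type replicate 3 or cKO replicate 1 left 24 and 25 calls, and leaving out the 2 arrays of other groups that stood apart raised it to 111, with all 38 among them. A fit of the Foxo1 line alone called 51 genes, 21 of them shared. The 17 genes that it did not call were Agtr1a, Batf2, C920006O11Rik, Cd274, Cdh1, Ciita, Colec11, Gbp3, Gbp5, Gbp11, Il18bp, Msantd1, Pax1, Rsad2, Shisa3, Tap1 and Tmem140, with adjusted p between 0.0516 (Gbp3) and 0.159 (Il18bp) in limma.

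Of the 31 raised genes, 19 belonged to 2 lists. Of the 49 measured interferon-inducible genes (of 52 listed), 14 rose and none was called lower, 45 had a positive difference and the median was 0.71. Of the 32 measured antigen processing and presentation genes (of 34 listed), 5 rose, none was called lower, 31 had a positive difference and the median was 0.36. The groups did not overlap for 25 of the 49 and 14 of the 32. Over all genes, 0.181% were called higher, 60.4% had a positive difference and 8.09% did not overlap. These lists were drawn up with earlier results of these arrays known, so their counts are a description.

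The 250 bases before the start of the raised genes were read for 3 motifs, because such genes are known to carry GAS and ISRE there. Start sites and sequences are from RefSeq (GRCm38.p6), with the first listed start of each gene, and 20 of the 31 raised genes and 5 of the 7 lowered genes had an entry. The motifs, searched on both strands, were GAS as TTCNNNGAA, the ISRE core as GAAA, any 2 bases and GAAA, and the FOXO motif as GTAAACA. GAS was found before 7 of the 20 raised genes (35%) and before 6.31% of the 13751 tested genes with an entry. The ISRE core was found before 10 of the 20 (50%) and before 2.84% of the tested genes. At least 1 of these 2 stood before 13 of the 20 (65%), against 8.71%. Of the 5 lowered genes, 1 (20%) held GAS and the ISRE core, both before Colec11. The FOXO motif stood before 3 of the 20 raised genes (15%), before none of the 5 lowered genes and before 2.47% of the tested genes. A match is only a run of letters, and these shares were not tested.

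The 100 bases before the start are printed for 7 raised genes, 5′ to 3′ on the gene's strand, with GAS and ISRE matches in capitals. In Tgtp1, Igtp and Irgm2, 3 immunity-related GTPase genes, the GAS match was followed after 2 bases by the ISRE match. Irf1 and Psmb8 held GAS alone, Gbp2 the ISRE on the opposite strand, and Gbp3 a pair of overlapping ISRE matches on the opposite strand.
Tgtp1 (chr11:48992247-48992346, minus strand): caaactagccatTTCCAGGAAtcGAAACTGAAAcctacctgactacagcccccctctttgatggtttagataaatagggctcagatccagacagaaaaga
Igtp (chr11:58199456-58199555, plus strand): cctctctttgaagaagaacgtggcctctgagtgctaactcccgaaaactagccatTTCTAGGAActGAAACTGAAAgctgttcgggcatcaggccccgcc
Irgm2 (chr11:58214877-58214976, plus strand): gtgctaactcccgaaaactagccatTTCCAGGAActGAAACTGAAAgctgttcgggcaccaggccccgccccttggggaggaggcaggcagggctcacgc
Irf1 (chr11:53769914-53770013, plus strand): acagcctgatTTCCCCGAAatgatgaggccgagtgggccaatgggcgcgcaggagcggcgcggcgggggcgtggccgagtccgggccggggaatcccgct
Psmb8 (chr17:34198095-34198194, plus strand): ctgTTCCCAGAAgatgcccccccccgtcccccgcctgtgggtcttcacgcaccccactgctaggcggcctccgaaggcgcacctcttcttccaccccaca
Gbp2 (chr3:142620563-142620662, plus strand): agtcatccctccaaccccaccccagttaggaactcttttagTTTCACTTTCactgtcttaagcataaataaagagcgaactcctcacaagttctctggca
Gbp3 (chr3:142559944-142560043, plus strand): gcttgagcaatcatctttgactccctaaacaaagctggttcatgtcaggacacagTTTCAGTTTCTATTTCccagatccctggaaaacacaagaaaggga

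Several called genes were also neighbours on the chromosomes. In the RefSeq gene order (GRCm38.p6), 16 of the 38 had another called gene with at most 10 tested genes between them, in 6 runs. These were Psmb8, Psmb9, Tap1 and Tap2 on chromosome 17, Gbp2, Gbp3 and Gbp5 on chromosome 3, Gbp4, Gbp6 and Gbp11 on chromosome 5, Tgtp1 with Ifi47 and Igtp with Irgm2 on chromosome 11, and Rsad2 with the lowered Colec11 on chromosome 12. The share of neighbours among other genes was not computed, so nothing is read from the 16 of 38. Of the 40 tested genes nearest to Foxo1 on chromosome 3, none was called in limma. With 0.222% of all genes called, this does not set them apart.

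Of the immunity-related GTPases, Tgtp1, Igtp, Iigp1, Irgm2 and Ifi47 rose. Tgtp1, the T-cell-specific GTPase, had levels of -2.21, -2.08, -2.48 and -1.96 in wild type. Its levels in cKO were 2.43, 2.52, 2.32 and 1.22. Every cKO array was above every wild-type array, with cKO replicate 4 the lowest. The difference was 4.30 ± 0.41 (SE, adjusted p = 3.94e-07 in limma), or 19.7-fold, but a second Tgtp1 probe gave only 1.24. Igtp, another membrane-bound GTPase of the family, had levels of 0.48, 0.74, 0.53 and 0.82 in wild type. In cKO they were 3.68, 3.61, 3.57 and 2.22. Here too the groups were apart and cKO replicate 4 was the lowest cKO array, and the difference was 2.62 ± 0.31 (adjusted p = 1.37e-05 in limma), or 6.17-fold.

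Iigp1 (Irga6), a cytosolic member that binds to pathogen vacuoles, rose from 0.74 ± 0.25 to 3.40 ± 0.81 (SD, n = 4 each). Irgm2, a regulatory member that sits on host membranes, rose by 1.79 ± 0.24 (SE). Ifi47 (Irgd) rose from -0.39 ± 0.08 to 1.23 ± 0.38 (SD, n = 4 each, adjusted p = 4.85e-06 in limma). Irgm1, another regulatory member, did not pass, at 0.71 ± 0.23 (SE, adjusted p = 0.519 in limma), although its groups did not overlap.

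Of the guanylate-binding protein genes, large GTPases that coat pathogen membranes, Gbp2, Gbp3, Gbp4, Gbp5, Gbp6 and Gbp11 rose. Gbp3 had levels of -0.62, -0.37, -0.61 and -0.40 in wild type and 2.19, 1.90, 1.78 and 0.52 in cKO. All cKO arrays were above wild type and replicate 4 lay nearest to it, with a difference of 2.10 ± 0.30 (adjusted p = 0.00018 in limma). Gbp6 rose by 2.96 ± 0.41 (7.80-fold), Gbp4 by 2.77 ± 0.42 (6.84-fold), Gbp5 by 2.56 ± 0.47, Gbp11 by 1.68 ± 0.32 and Gbp2 by 1.65 ± 0.33 (SE). Gbp5 no longer passed with the replicate number as a block (adjusted p = 0.0613 in limma). Gbp7, at 1.58 (adjusted p = 0.0871 in limma), and Gbp9 (adjusted p = 0.281) did not pass although their groups did not overlap, and Gbp8, at 0.75, did not pass either. These genes are near-copies of each other, so probes can share signal between them.

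Cxcl10, a chemokine that draws CXCR3-bearing T and NK cells, had the highest difference of the called genes. Its wild-type levels were -5.02, -3.79, -4.99 and -4.04. In cKO they were 0.83, 0.50, 0.47 and -2.08. Replicates 1 to 3 of cKO lay together and replicate 4 fell between them and wild type. The difference was 4.39 ± 0.59 (SE, adjusted p = 0.000109 in limma), or 20.9-fold. Cxcl9, a related chemokine, was dim in wild type and did not pass. No member of the 40 measured chemokine and cytokine genes of a separate list was called (median 0.20, 2 lower and none higher at an unadjusted p under 0.05). Over all genes 0.222% were called and the median was 0.05.

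Cd274 encodes PD-L1, the ligand that restrains T cells through PD-1. It was dim in wild type, meaning under the array's 30th percentile on all 4 arrays, with levels of -7.49, -5.58, -5.88 and -6.20. In cKO they were -2.58, -2.71, -2.91 and -4.75, again with replicate 4 the lowest and no overlap. Cd274 was at least 4.06-fold higher in cKO, counted from that percentile (adjusted p = 0.000501 in limma). Ciita, the coactivator that switches on MHC class II genes, was likewise dim in wild type and at least 3.98-fold higher (adjusted p = 0.000495), with levels of -2.14, -3.09, -2.87 and -4.98 in cKO. Neither passed in a fit of the Foxo1 line alone (adjusted p = 0.0855 and 0.112).

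The transcription factor genes Irf1 and Batf2 were called, and Irf8 was not. Irf1, an activator of interferon-inducible genes, had levels of 2.62, 2.67, 2.52 and 2.58 in wild type and 4.13, 4.16, 4.23 and 3.51 in cKO. The wild-type arrays lay close together and the cKO arrays all above them, with a difference of 1.41 ± 0.30 (SE, adjusted p = 0.0379 in limma). Irf1 did not pass with median scaling or in 7 of the 8 fits that left out 1 array (adjusted p up to 0.164). Batf2, a basic leucine zipper factor that partners with IRF1 in macrophages, rose by 2.46 ± 0.35. Irf8, a factor of myeloid cells, had a difference of 0.47 with no overlap and did not pass (adjusted p = 0.171 in limma). Without the 2 arrays that stood apart, Irf8 was called (adjusted p = 0.0343 in limma).

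Of the genes that cut and move peptides for MHC class I, Psmb8, Psmb9, Tap1 and Tap2 rose. Psmb9, a catalytic subunit of the immunoproteasome, had levels of 0.36, 0.49, 0.53 and 0.80 in wild type. In cKO they were 2.63, 2.32, 2.66 and 1.75. The groups were apart by almost 1 log2 unit, and the difference was 1.79 ± 0.18 (SE, adjusted p = 1.44e-06 in limma), or 3.47-fold. Psmb8, the second catalytic subunit, rose by 1.12 ± 0.17. Tap1 and Tap2, which together form the peptide transporter, rose by 1.45 ± 0.32 and 0.72 ± 0.15, and neither passed with median scaling or with the replicate number as a block (adjusted p = 0.14 and 0.153 in limma). Others of this machinery were not called. Psmb10, the third immunoproteasome subunit, was at 0.68 (adjusted p = 0.662 in limma), Erap1, a peptide trimming enzyme, at 0.28 ± 0.21, Tapbp, the chaperone tapasin, at 0.19 ± 0.27 and Psme1, a proteasome activator subunit, at 0.16 ± 0.20 (SE).

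The MHC molecules themselves did not pass. H2-K1 and H2-D1, the heavy chains of class I, were at 0.20 ± 0.25 and 0.35 ± 0.13 (SE). B2m, their light chain, was at 0.49 ± 0.45. Of class II, H2-Ab1 was at 0.94 ± 0.25 (adjusted p = 0.165 in limma), H2-Aa at 0.59 and Cd74 at 0.46. The raised members of the list were Psmb8, Psmb9, Tap1, Tap2 and Ciita.

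**Figure D2:**
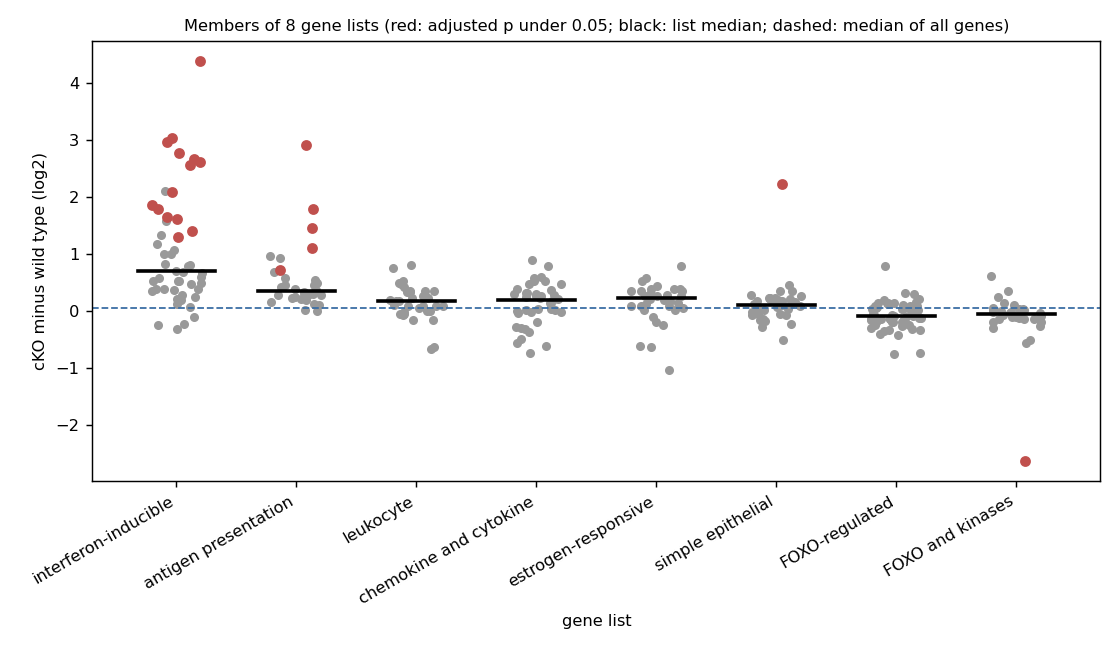
Difference between cKO and wild type (log2) of each measured member of 8 gene lists, with called genes in red, the list's median as a black bar and the median of all genes (0.05) dashed. The interferon-inducible and antigen lists hold 14 and 5 called members and sit above the dashed line, while the other lists hold 1 called member (Cdh1, Foxo1) or none.

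Zbp1, a sensor of nucleic acids, rose by 1.87 ± 0.30, and Rsad2 (viperin), an antiviral enzyme, by 1.30 ± 0.25 (SE). Rsad2 did not pass with median scaling. Isg15, a ubiquitin-like protein, was at 1.07 (adjusted p = 0.104 in limma), Ifit1 at 1.33 (adjusted p = 0.289), Oas2 at 1.17 (adjusted p = 0.212) and Oasl2 at 1.00 (adjusted p = 0.273), all without overlap between the groups. Mx1, a dynamin-like antiviral GTPase, was at 0.20 ± 0.27, Usp18 at 0.13 and Bst2 at -0.11, none of them called.

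Ligands and receptors of the pathway did not pass. Ifng, which encodes interferon gamma, had levels of -4.70, -4.38, -5.34 and -4.55 in wild type and -4.17, -3.67, -4.92 and -5.00 in cKO. The groups overlapped, and the difference was 0.30 ± 0.67 (SE). The level under which a gene counts as dim ran from -5.58 to -5.02 in wild type. In cKO it ran from -5.45 to -4.73, so Ifng was near the dim level in both genotypes. Ifnb1, for interferon beta, was at 0.06 ± 0.57. With SE of this size, whether either ligand changed cannot be judged from these values. The receptor genes Ifnar1, Ifnar2, Ifngr1 and Ifngr2 lay between -0.24 and 0.05. Socs1, a feedback inhibitor of the pathway, was at 0.30 ± 0.24.

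The other raised genes were Cdh1, Serpina3f, Il18bp, Rtp4, Apol9b, Tmem140, Msantd1, Parp10 and C920006O11Rik. Il18bp, a decoy that binds interleukin 18, rose by 1.22 ± 0.22, and Rtp4, an interferon-inducible chaperone of receptors, by 1.13 ± 0.22 (SE). Serpina3f, a serine protease inhibitor, rose by 2.61 ± 0.34 (6.09-fold). Parp10, a mono-ADP-ribosyltransferase, rose by 0.66 ± 0.12, the lowest difference among the raised genes. Tmem140, a membrane protein gene, rose by 0.95 ± 0.21 and was called in only 8 of 20 alternatives, losing its call with the set as a block, the mean of its probes and no probe filter among others. With the replicate number as a block, Parp10, Msantd1 and Apol9b no longer passed (adjusted p = 0.0816, 0.0883 and 0.199 in limma). C920006O11Rik, a long non-coding RNA gene, was dim in wild type and at least 1.06-fold higher. Irf1, Gbp2, Irgm2, Ifi47, Rsad2, Tap2, Il18bp, Rtp4, Apol9b, Tmem140, Msantd1 and Parp10 fell outside the naming rule and were named after their values were seen.

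Markers of leukocytes, which could carry interferon-inducible transcripts, were read beside these genes. None of the 34 measured leukocyte genes (of 40 listed) was called, 26 had a positive difference and the median was 0.18. Over all genes 0.222% were called, 60.4% had a positive difference and the median was 0.05. The groups did not overlap for 4 of the 34, against 8.09% of all genes. Their summed intensity ran from 54.7 to 58.1 times the array's 75th percentile in wild type and from 48.0 to 79.8 in cKO, so the cKO range held the wild-type range. Most of that sum came from the myeloid genes Lyz2 and Cd14, with wild-type mean levels of 4.75 and 3.31, so it says little of T, NK or mast cells, whose genes were far dimmer. Of T cell markers, Cd8a was at 0.75 ± 0.44, Cd3g at 0.49 ± 0.35, Cd3e at 0.10 ± 0.92 and Cd4 at -0.04 ± 0.36 (SE). The NK cell markers Nkg7 and Ncr1 were at 0.00 and -0.06. The mast cell genes Mcpt4 and Cpa3 were at -0.67 ± 0.27 and -0.63 ± 0.37, but a second Mcpt4 probe gave 0.16. Kit and Fcer1a, of the same list, were at 0.18 ± 0.23 and -0.17 ± 0.42. Ptprc, carried by all leukocytes, was at 0.24 ± 0.33. Fcgr1, a receptor of monocytes and macrophages that interferon gamma induces, was at 0.52 ± 0.15 without overlap (adjusted p = 0.297 in limma). Adgre1, the macrophage marker F4/80, was at 0.48, also without overlap. Lcp2 and Fcgr4, leukocyte genes outside the list named after their values were seen, were at 0.87 and 1.06. Their groups did not overlap, and neither passed (adjusted p = 0.0702 and 0.0839 in limma). Without the 2 arrays that stood apart, both were called (adjusted p = 0.0116 and 0.0145 in limma). None of the red blood cell genes was called, but 10 of 11 measured genes had a positive difference, with a median of 0.74. Their summed intensity, on the same scale, reached 159 at most in wild type (from 60.6) and 420 in cKO (from 152). The part of either cell type in the result was not tested.

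Cdh1, which encodes E-cadherin, the adhesion molecule of epithelial cells, rose alone among the epithelial markers. Its levels were 0.67, 0.72, 1.51 and 1.73 in wild type and 2.83, 2.75, 3.89 and 4.11 in cKO. Within each genotype replicates 3 and 4 lay about 1 log2 unit above replicates 1 and 2, and within each set cKO was higher, by 2.10 and 2.38. The difference was 2.24 ± 0.38 (SE, adjusted p = 0.00295 in limma), or 4.72-fold, and all 10 Cdh1 probes gave between 2.13 and 2.29. In a fit of the Foxo1 line alone it did not pass (adjusted p = 0.0703). Of the 41 measured simple epithelial genes Cdh1 was the only 1 called (limma). Epcam was at -0.17 ± 0.23 and Cldn3, a tight junction claudin, at 0.36 ± 0.17. Ctnnb1, which encodes the beta-catenin that binds E-cadherin, was at 0.07.

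Cdh1 stood apart between the mouse lines as well. DES-treated wild-type uteri had Cdh1 levels from 3.99 to 4.10 in the Esr1 line and from 3.51 to 6.05 in the Foxa2 line. The Foxo1 wild-type arrays, at 0.67 to 1.73, were below all of them, and the Foxo1 cKO arrays overlapped them. In the Esr1 line DES raised Cdh1 by 1.69 (adjusted p = 0.00057 in limma), or by 1.98 without the 2 arrays that stood apart. The Foxa2 wild-type range includes 1 of these 2 arrays, and the Foxa2 difference in Cdh1 moved from -0.38 to 0.18 without them. Line and any other property of these mice cannot be told apart here.

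Besides Foxo1, 6 genes fell. Aldh1a3, an enzyme that makes retinoic acid, had levels of -1.10, -0.65, -0.70 and -1.26 in wild type. In cKO they were -2.53, -2.49, -2.78 and -3.13. Every cKO array was more than 1 log2 unit under wild type, and the difference was -1.80 ± 0.23 (SE, adjusted p = 5.49e-05 in limma). A second Aldh1a3 probe gave -0.53, and the mean of both was not called (-1.17, adjusted p = 0.334). It was the only 1 of 19 measured retinoid metabolism genes called in limma: Aldh1a2, which makes retinoic acid in uterine stroma, was at -0.20, and Crabp2, a retinoic acid carrier, at 0.48. The Foxo1 wild-type level of Aldh1a3 was above the -3.28 to -2.10 of DES-treated Esr1 wild type and the -2.77 to -2.13 of DES-treated Foxa2 wild type, while cKO lay within the first of these ranges.

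Shisa3, known as an inhibitor that holds Frizzled and FGF receptors inside the cell, had levels of -3.02, -3.23, -2.76 and -2.88 in wild type and -3.99, -4.94, -4.14 and -5.05 in cKO. No cKO array reached wild type, and the difference was -1.56 ± 0.27 (SE, adjusted p = 0.00391 in limma). Its 4 cKO arrays also lay below all 28 other arrays. Galnt15, a glycosyltransferase that starts mucin-type glycans, fell by 1.52 on the log2 scale, from 1.81 ± 0.25 to 0.29 ± 0.19 (SD, n = 4 each), but not with the replicate number as a block (adjusted p = 0.114 in limma). Agtr1a, the angiotensin II type 1a receptor, had 0.32, 0.24, 0.32 and 0.26 in wild type and -0.46, -0.78, -0.97 and -1.49 in cKO. Its wild-type arrays were nearly equal and its cKO arrays spread, with a difference of -1.21 ± 0.24 (adjusted p = 0.0195 in limma).

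Pax1, a paired-box transcription factor, was dim in cKO and at least 1.47-fold lower (adjusted p = 0.016 in limma). Its levels were -4.30, -4.94, -4.43 and -4.17 in wild type and -7.12, -7.35, -6.02 and -5.73 in cKO. Of 11 probes kept for Pax1, 10 gave a negative and 1 a positive difference. Pax1 was called in only 12 of 19 alternatives (adjusted p up to 0.982 in limma). It lost its call with 16 added to each intensity, in the Foxo1 line alone and in several fits without 1 array. Colec11, a collectin of the lectin complement pathway, fell by 0.96 on the log2 scale, from -1.42 ± 0.21 to -2.38 ± 0.31 (SD, n = 4 each, adjusted p = 0.0236 in limma). Outside the Foxo1 line the group means of Colec11 lay between -3.07 and -2.75, so the Foxo1 wild-type group was the highest of the 8.

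**Figure D3:**
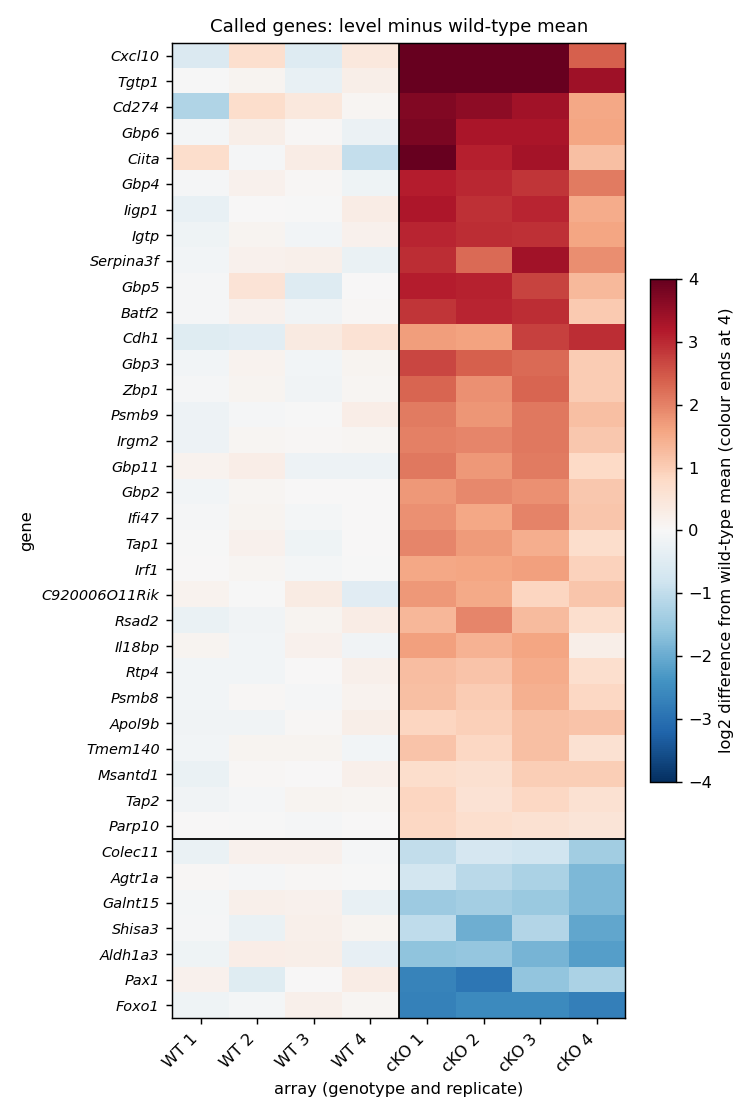
Level of each of the 38 called genes on each of the 8 arrays of the Foxo1 line, minus the gene's wild-type mean (log2, colour ends at 4), ordered by the difference. The 31 raised genes (top) are red in the 4 cKO columns, palest in cKO replicate 4 for most of them, and the 7 lowered genes (bottom) are blue.

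Genes known as FOXO targets did not pass. None of the 58 measured genes of that list (of 62 listed) was called, with 23 positive differences and a median of -0.09. Over all genes 0.222% were called, 60.4% had a positive difference and the median was 0.05. With so small a share called, a list of 58 genes without a call does not stand apart from other genes. At an unadjusted p under 0.05, 2 of them were lower (S1pr1 at -0.40 and Sesn1, a stress-inducible sestrin, at -0.43) and none higher. Pdk4 and Klf15, known FOXO1 targets of fasting metabolism, were at -0.75 ± 0.39 and -0.73 ± 0.42 (SE). Cdkn1b, the cell cycle inhibitor p27, was at 0.21 ± 0.15, and Bcl6 at 0.30 ± 0.19. Igfbp1, the classical FOXO1 target of human decidual cells, was dim in cKO, so its difference is not given. Of the other FOXO genes, Foxo6 was at 0.25 ± 0.12 with no overlap, Foxo4 at 0.61 ± 0.41, and Foxo3 was dim in wild type. None of the 3 was called.

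Estrogen-responsive genes did not pass either. None of the 34 measured was called, where 0.222% of all genes were, and their median was 0.22. Of these, 28 had a positive difference and 10 did not overlap between the groups, against 60.4% and 8.09% of all genes. Ramp3, a partner of the adrenomedullin receptor, had 3.78, 3.80, 3.92 and 3.68 in wild type and 3.29, 3.08, 2.76 and 1.96 in cKO. Its groups did not overlap, and the difference of -1.03 ± 0.24 (SE) did not pass (adjusted p = 0.0839 in limma). Pgr, the progesterone receptor, was at -0.61 ± 0.16 (adjusted p = 0.171 in limma), Inhbb, an activin subunit, at -0.63 ± 0.18 (adjusted p = 0.273) and Esr1 at 0.07 ± 0.40. A second Pgr probe gave only -0.20, and a second Inhbb probe gave 0.18. Without the 2 arrays that stood apart, Ramp3 and Pgr were called lower (adjusted p = 0.0194 and 0.0268 in limma). In the progesterone and decidual list none of 34 measured genes was called, and none of 44 DNA replication and 49 mitosis genes was (medians 0.12 and 0.04). Beside the lists named above, the gland genes held 1 call, again Cdh1, and the remaining lists held none.

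The groups of all 38 called genes do not overlap, which by itself gives both sets of replicates the same sign, so the sets were compared by the size of the difference and by their own tests. Tested on their own, replicates 1 and 2 gave 22 calls (0.128%), 20 of them among the 38, and replicates 3 and 4 gave 6 (0.035%), all among the 38 (limma, 2 arrays against 2). The 6 were Foxo1, Tgtp1, Psmb9, Ifi47, Aldh1a3 and Serpina3f. The difference was larger in replicates 1 and 2 for 28 of the 31 raised genes: Cxcl10 gave 5.07 and 3.71, Cd274 3.89 and 2.20, and Rsad2 1.83 and 0.76. For 26 of the 31, cKO replicate 4 was the lowest cKO array. No gene was called for the difference between sets in limma (399 at an unadjusted p under 0.05), and with the set as a block 41 genes were called, 37 of them among the 38, with Tmem140 lost. Without cKO replicate 4, 46 genes were called, 33 of them among the 38.

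**Figure D4:**
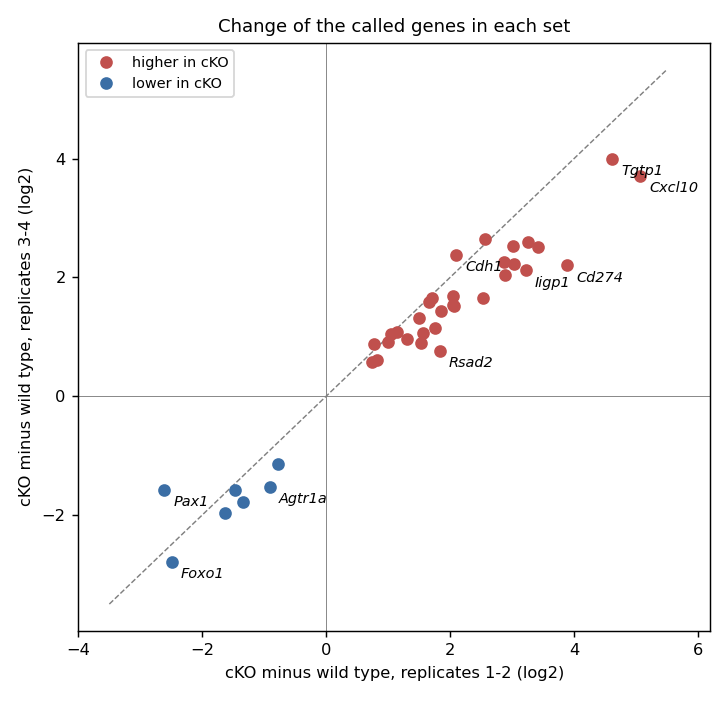
Difference between cKO and wild type (log2) of the 38 called genes in replicates 1 and 2 (x axis) and in replicates 3 and 4 (y axis), red for raised and blue for lowered genes, with the line of equality dashed. The shared sign of both differences follows from groups that do not overlap, and 28 of the 31 raised genes fall below the dashed line.

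The same genes were read in the other lines, whose arrays the comparison does not use apart from the shared estimate of spread. In the Foxa2 line 6 of the 31 raised genes were called, against 2.21% of all genes (1.11% higher). Tgtp1 (1.76), Gbp4 (2.23), Gbp11 (1.87), Ifi47 (0.83) and Apol9b (0.89) were higher in Foxa2 cKO and Msantd1 was lower (-1.17). Without the 2 arrays that stood apart, 7 were called higher and 1 lower, against 3.41% of all genes, with Tgtp1 at 1.45 and Gbp4 at 1.65. The difference between the Foxo1 and the Foxa2 effect was itself called for 13 of the 31 raised genes (0.957% of all genes) and for 3 of the 7 lowered ones, and these genes were chosen for their Foxo1 difference, so nothing is read from the counts. Without the 2 arrays it was called for 18 of the 31 and 5 of the 7 (2.67% of all genes). With all arrays it was called for Tgtp1 (2.54, adjusted p = 0.0244 in limma), Psmb9 (1.69), Igtp (1.88), Cxcl10 (4.18), Cd274 and Cdh1 (2.62). It was not called for Gbp4 (0.55, adjusted p = 0.77) or Gbp11 (-0.19, adjusted p = 0.91, limma). Without the 2 arrays Gbp4 gave 1.13 (adjusted p = 0.211) and Gbp11 0.14 (adjusted p = 0.92, limma), still not called. Tgtp1 then gave 2.85, Psmb9 1.79, Igtp 1.91, Cxcl10 4.76 and Cdh1 2.06, all called. Of the lowered genes it was called for Foxo1, Aldh1a3 (-2.08) and Pax1 with all arrays. Without the 2 arrays Shisa3 (-1.53) and Galnt15 (-1.73) were called too, and Aldh1a3 gave -1.99. The Foxo1 list of 38 and the Foxa2 list of 379 shared 6 genes, 15.8% of the first and 1.58% of the second.

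In the Esr1 line the raised genes were lower in cKO or did not pass. Of the 31, 14 were lower in Esr1 cKO than in wild type under DES (13.9% of all genes were) and none was higher (16.6% were). The difference between the Foxo1 and the Esr1 effect was called for all 31 (19.6% of all genes), but this contrast holds the Foxo1 difference for which the genes were chosen, so nothing is read from that count. DES raised 15 of the 31 in Esr1 wild type (21.5% of all genes) and lowered 2 of them (30.3%), and the counts were again 15 and 2 without the 2 arrays that stood apart (27.4% and 35.8% of all genes). Zbp1 was higher after DES by 3.36 and Ifi47 by 2.40, while Cxcl10 was lower (-1.71). Igtp, Iigp1 and Tgtp1 were not called for DES (-0.17, -0.04 and 0.55). Without the 2 arrays the values in the same order were 3.44, 2.40, -1.65, -0.20, -0.04 and 0.32.

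Set against every other array, the cKO levels were extreme for few of the genes. All 4 Foxo1 cKO arrays lay above the other 28 arrays for Psmb9, Serpina3f, Parp10 and Tap2 (85 genes in all, or 0.496%), and below them for Foxo1 and Shisa3 (43 genes, or 0.251%). Psmb9 ran from 1.75 to 2.66 in Foxo1 cKO, and no other group went beyond 1.61. Tgtp1 overlapped instead, with 1.22 to 2.52 in Foxo1 cKO and up to 2.15 in Foxa2 cKO. Zbp1 in Foxo1 cKO, at -1.35 to -0.02, lay within the range of the DES-treated Foxa2 groups and Esr1 wild type, and Foxo1 wild type, at -2.48 to -2.25, was below them.

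**Figure D5:**
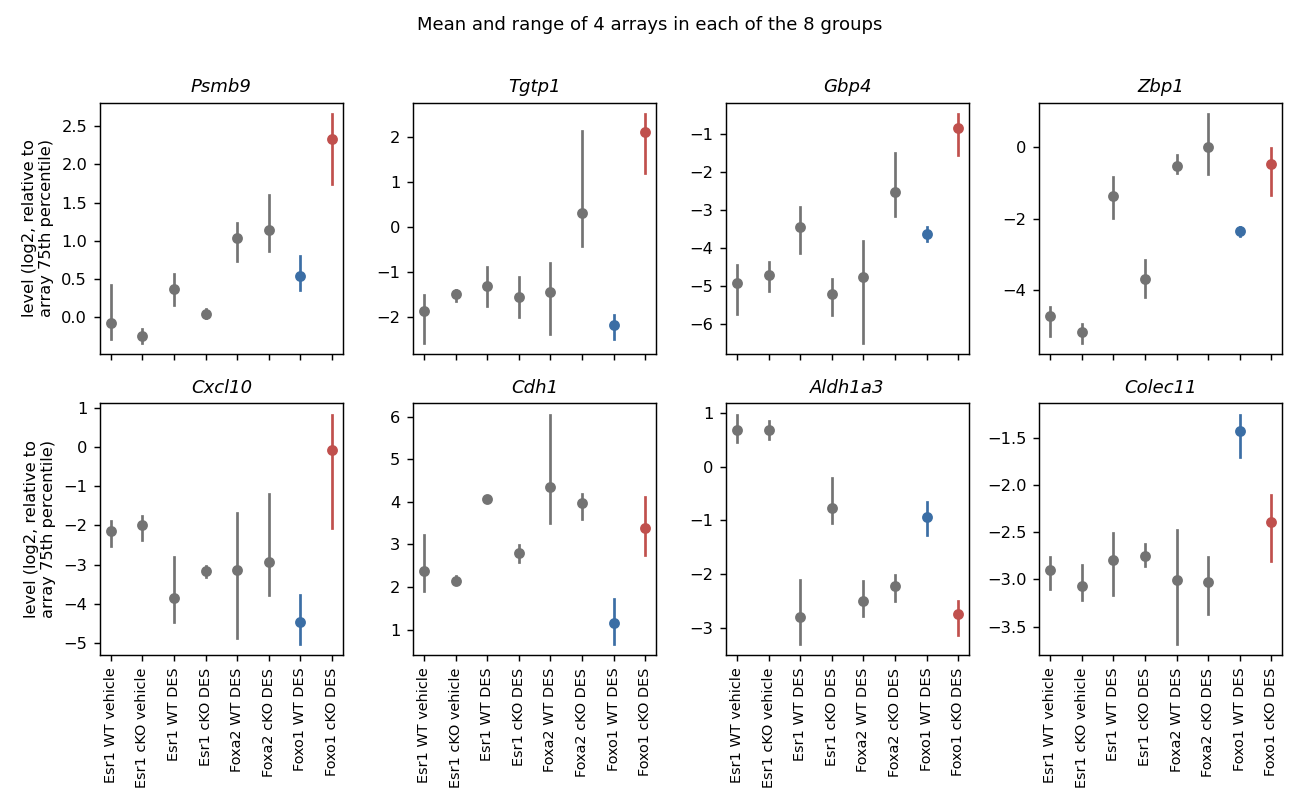
Mean (dot) and range (line) of the level (log2, relative to the array's 75th percentile) of 8 called genes over the 4 arrays of each group, with Foxo1 wild type in blue and Foxo1 cKO in red. Foxo1 cKO is the highest group for Psmb9, Tgtp1, Gbp4 and Cxcl10, and for Cdh1, Aldh1a3 and Colec11 Foxo1 wild type is the lowest, an intermediate and the highest group.

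Over the 8 arrays, after group means were removed, the genes closest to Foxo1 were Fzd9 and Evx1 (Pearson r = 0.98 each), Kctd12b and Ube2r2 (0.97 each) and Igf1r (0.96). These values describe 8 arrays that share 2 sets. They were picked as the highest among all genes tested and were not tested themselves, so nothing is read from them. The Igf1r probes gave differences between cKO and wild type from -0.37 to 0.40.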

How the data were processed

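Per the labels, total RNA of day 5 uteri was hybridised to single-colour Agilent arrays, and per the submitters' processing notes scans were read with Agilent Feature Extraction 12. The authors deposited 1 linear intensity per probe and array for 45018 probes, from 1.87 to 922772. How the scanner values were corrected or normalized is not stated in the sources used here. The number of arrays, 4 per group, limits the precision.

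Intensities were put on a log2 scale and centred on each array's 75th percentile. Probes were kept that exceeded the array's 30th percentile on at least 4 of the 32 arrays (36657 kept). Of the probes, 33653 had 1 gene symbol, 56 had several and 11309 had none. The kept probe with the highest mean stood for its gene. Symbols of 33517 probes were brought up to date through RefSeq. limma 3.58.1 in R 4.3.3 fitted all 32 arrays together, with a mean for each of the 8 groups, 24 residual degrees of freedom and Benjamini-Hochberg adjustment. The sets were fitted as groups of their own (22 degrees of freedom). The fit was tested on simulated data. A gene under the 30th percentile on all 4 arrays of a group has only a bound, counted from that percentile.

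Deviations from group means of arrays with the same replicate number in cKO and wild type correlated at 0.29 to 0.38 in the Foxo1 line. Arrays of the same set with another number correlated at 0.21 to 0.25 and arrays of different sets at -0.33 to -0.23. Every same-number correlation was above 0.1, so the number was taken to pair the arrays. Those of the same set with another number were above 0.1 too. This rule therefore cannot tell pairing by number from the shared set. The fit with the number as a block is given where it changes a call. The numbers come from the sample titles.

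The naming rule took Foxo1, Foxa2 and Esr1, called genes without overlap and with the same sign in both sets by the smaller of their 2 set differences, called genes by size, and called members (or the top member) of 41 gene lists covering FOXO, hormone, interferon, antigen, epithelial, stromal, blood, cell cycle and metabolic genes, without gene models. C920006O11Rik, a gene model, and other members of the lists discussed were named outside it. Members, lists and doubted arrays were chosen with earlier results of these data known. Alternatives covered scaling, offset, filter, probe choice, samples, variance model, blocks and threshold.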

Additional observations from a re-analysis of the deposited data

Results flagged for a closer look

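Single arrays stood far from the other 3 of their group for 15 of 148 groups examined (74 genes in the 2 genotypes), where chance alone gives about 1 in 20. Of these, 10 were cKO replicate 4. It was the lowest cKO array for Batf2 at -1.28 (others 0.53 to 0.72), Cd274 at -4.75 (-2.91 to -2.58), Cxcl10 at -2.08 (0.47 to 0.83), Igtp at 2.22 (3.57 to 3.68), Il18bp at -3.39 (-2.23 to -1.99), Irf1 at 3.51 (4.13 to 4.23), Irgm2 at 1.21 (2.08 to 2.25) and Tgtp1 at 1.22 (2.32 to 2.52). Ccl8, a monocyte chemokine that was not called, stood at -3.88 there (-3.11 to -2.98), and Foxa2, also not called, was higher there at 3.22 (2.94 to 2.96). In wild type, Irgm2 was low in replicate 1 at -0.075, Nefl in replicate 2 at -5.92 and Slc26a7 in replicate 3 at 0.10, while Synm was high in replicate 3 at -0.10 and Tnni2 in replicate 4 at 0.93.

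Probes without a gene symbol, which the comparison leaves out, also gave calls. Of 7247 such probes tested, 24 were called in limma, all of them higher in cKO. These probes as a class sat higher there, with a median difference of 0.16 and 73.9% positive, against 0.05 and 60.4% for genes. The level at the 30th percentile ran from -5.58 to -5.02 on the wild-type arrays and from -5.45 to -4.73 on the cKO arrays. The part of this shift in the 24 calls was not tested.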

How the results depend on the processing

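Foxo1 kept its call and its direction throughout, and leaving out 1 array at a time gave -2.70 to -2.57. All 872 values computed for the 38 called genes kept their direction, which groups that do not overlap fix where arrays are left out, and 13 of the 38 were called in all 20 alternatives other than the stricter threshold and the single sets. The 38 calls became 63 with quantile normalization, 419 with array weights, 111 without the 2 doubted arrays, 24 at an adjusted p under 0.01, 22 with replicates 1 and 2 only and 6 with replicates 3 and 4 only. Leaving out 1 array gave 24 to 46. The other alternatives gave 33 to 51. With the replicate number as a block, the pairing gave 36 calls, lost the 7 genes Apol9b, Galnt15, Gbp5, Msantd1, Parp10, Tap1 and Tap2, added 5 and changed no other call. For the difference between sets, no call became 891 with array weights and 0 to 2 leaving out 1 array, and neither block was added to it. The 164 calls for Foxo1 against Foxa2 became 1987 with array weights, 458 without the doubted arrays, 62 at the stricter threshold and 96 to 222 leaving out 1 array, with 96 both without Foxo1 wild-type replicate 3 and without Foxa2 cKO replicate 4. The 3365 for Foxo1 against Esr1 became 7248, 6406, 2071 and 2894 to 3293 under the same alternatives. The 8876 for DES became 5353 at 2-fold or more and 8060 to 8732 leaving out 1 array. A fit of the Foxo1 line alone cannot give these 3.

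The 14 interferon-inducible calls became 29 with array weights, 1 with replicates 3 and 4 only and 10 to 15 leaving out 1 array. The 5 antigen calls became 3 with median scaling, with the Foxo1 line alone and with the replicate block, 10 with array weights, 8 without the doubted arrays, 2 and 1 in the single sets and 3 to 6 leaving out 1 array. Among genes not called, the sign turned for Esr1 (-0.077 with median scaling, -0.073 with replicates 3 and 4 only, -0.0031 to 0.12 leaving out 1 array), Prl8a2 (-0.16 with replicates 1 and 2 only), Zp3 (-0.029) and Tet2 (-0.10, both with replicates 3 and 4 only). The cause was not tested, beyond fewer arrays in the single sets.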

Other observations

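Secretory and defence genes of the uterine epithelium did not pass the test. None of 37 measured was called in limma (5 at an unadjusted p under 0.05), 31 had a positive difference and the median was 0.26. Over all genes 0.222% were called and 60.4% had a positive difference, and the median of all genes moved from 0.05 to -0.10 with median scaling. Saa3, an acute-phase protein, was at 1.78 (adjusted p = 0.0952 in limma), and Pigr, which carries IgA across epithelium, at 1.44 (adjusted p = 0.105). Without the 2 doubted arrays, Saa3 was called higher (adjusted p = 0.0491 in limma).

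The genes nearest to the threshold on its far side were Sp110, an interferon-inducible nuclear body protein, at 0.97, Rgs7 at 0.94, and Pde1a and Fzd7, a Wnt receptor, at -0.57 each (adjusted p = 0.0565 in limma). Without the 2 doubted arrays, the 73 genes added to the 38 calls included Sp110, Gbp7, Gbp9, Isg15, Oas2, Oasl2, Psmb10 and H2-Ab1, all higher in cKO, and Pgr and Ramp3, both lower. They were named after their values were seen.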
